A study of Homo sapiens with 2 samples.

Results

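The AP-1 and immediate early genes described here are 10 genes chosen by name, namely *FOS*, *FOSB*, *FOSL1*, *FOSL2*, *JUN*, *JUNB*, *JUND*, *EGR1*, *IER2* and *IER3*, among 60612 genes listed for each library. All 10 were found, and 9 of them reached 1 FPKM (fragments per kilobase, scaled to library size) in at least 1 library, the exception being *FOSB*. The cells were L3.6, an established human line of pancreatic ductal adenocarcinoma. RNA sequencing gave 1 library of shCtrl cells, which the labels call untreated and the study's methods describe as carrying a non-targeting shRNA, and 1 library of shESE1 cells, in which a lentiviral shRNA targeted the mRNA of the ETS factor ESE1 (gene *ELF3*). Both lines were pools of antibiotic-resistant clones, and no cytokine is named for either in the labels. The comparison asks how the level of each gene differed when ESE1 was lowered. With 1 library per condition there was no replicate check and no test across genes, so every value below describes these libraries.

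AP-1 is a dimer of basic leucine zipper proteins. FOS family proteins bind DNA only as heterodimers with JUN family proteins, whereas JUN proteins can also pair with each other. Many of these genes are immediate early genes, whose transcription starts within minutes of a growth factor, serum or stress signal through MAP kinases, serum response factor and CREB-type factors, and whose mRNA is short-lived. *EGR1* encodes a zinc finger factor of the same early response, *IER2* a nuclear protein induced by the same signals, and *IER3* a stress-inducible protein that acts on cell survival.

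Promoter sequence of 8 of the 10 genes was matched by symbol in RefSeq windows on GRCh38.p14, and *FOSL1* and *IER3* were not matched. The 250 bases before the start of 5 genes are printed because 3 of them were lower (*FOS*, *EGR1*, *IER2*) and the others higher (*JUN*, *JUND*) in shESE1 cells. Each runs 5′ to 3′ along the gene's strand, and capitals mark the words TGACG, TGACGTCA, TGACATCA and CCGGAAG on either strand and the CArG box, the site of serum response factor.

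FOS (chr14:75278578-75278827, plus strand): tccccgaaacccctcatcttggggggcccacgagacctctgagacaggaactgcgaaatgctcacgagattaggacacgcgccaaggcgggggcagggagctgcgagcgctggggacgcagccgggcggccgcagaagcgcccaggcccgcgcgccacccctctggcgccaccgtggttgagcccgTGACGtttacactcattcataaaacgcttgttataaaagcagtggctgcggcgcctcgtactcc

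EGR1 (chr5:138465229-138465478, plus strand): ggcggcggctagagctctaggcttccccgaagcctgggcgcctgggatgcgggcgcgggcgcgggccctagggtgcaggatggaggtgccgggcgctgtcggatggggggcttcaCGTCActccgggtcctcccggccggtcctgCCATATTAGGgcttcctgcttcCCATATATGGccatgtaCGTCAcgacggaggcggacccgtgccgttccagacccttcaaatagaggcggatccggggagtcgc

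IER2 (chr19:13150161-13150410, plus strand): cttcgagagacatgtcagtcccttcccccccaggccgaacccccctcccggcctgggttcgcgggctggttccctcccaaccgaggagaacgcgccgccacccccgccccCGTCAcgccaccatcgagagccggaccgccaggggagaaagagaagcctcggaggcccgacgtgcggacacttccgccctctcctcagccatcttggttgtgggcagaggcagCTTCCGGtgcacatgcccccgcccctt

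JUN (chr1:58784048-58784297, minus strand): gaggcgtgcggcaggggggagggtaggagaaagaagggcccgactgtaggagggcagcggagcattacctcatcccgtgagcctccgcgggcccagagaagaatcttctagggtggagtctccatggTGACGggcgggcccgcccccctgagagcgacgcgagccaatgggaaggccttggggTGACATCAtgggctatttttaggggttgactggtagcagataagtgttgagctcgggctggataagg

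JUND (chr19:18281623-18281872, minus strand): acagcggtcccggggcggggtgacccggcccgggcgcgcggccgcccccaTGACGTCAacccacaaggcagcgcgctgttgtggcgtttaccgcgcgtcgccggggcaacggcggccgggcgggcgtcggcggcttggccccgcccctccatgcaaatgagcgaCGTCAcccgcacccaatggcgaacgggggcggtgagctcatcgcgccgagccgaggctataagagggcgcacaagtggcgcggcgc

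The word TGACG, the core of the cyclic AMP response element, was found in all 8 matched promoters, against 21.2% of the 35116 promoter windows of the same length. It stood in genes that were lower and in genes that were higher in shESE1 cells. The windows of the members and all windows were not matched for GC content. *EGR1* held both CArG boxes found in the windows of the matched members, a box present in 1.16% of all windows. *JUN* held TGACATCA, known as a site of JUN and ATF2 dimers, at 67 to 60 bases before the start (2.37% of all windows), and *JUND* held the full element TGACGTCA (1.65%), with which TGACG overlaps. The ETS word CCGGAAG was found in *IER2* alone (8.52% of all windows), and the AP-1 word TGANTCA in 0 of the 8 (6.57%). The shorter ETS core GGAA, not marked in capitals, was found in 7 of the 8, all but *JUND*, and in 92.7% of all windows. These matches describe the letters of the windows and not binding. Sites further upstream than the windows reach were not searched, so a word missing here may still occur near the gene.

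The shCtrl library held 56853971 counts and the shESE1 library 60786475, and the 10 genes together held 37962 and 36115 of them. *ELF3* was at 20.4 FPKM in shCtrl and 10.7 FPKM in shESE1. Of 10 ductal epithelial marker genes all 10 reached 1 FPKM, among them *KRT19* at 464 and 606 FPKM and *CDH1*, which encodes E-cadherin, at 16.3 and 6.95 FPKM (log2 change −1.13). *MUC1*, named after its values were seen, was at 5.41 and 2.48 FPKM (−0.88). Of the 10, 3 had a log2 change below 0 and 7 above, with a median of 0.31. Of 17 markers of other cell types 2 reached 1 FPKM (*COL1A1*, 4.53 and 2.25 FPKM, and *CD68*, 3.70 and 7.94 FPKM) and 11 had 0 counts in both libraries. Mitochondrial transcripts made up 12.4% of the shCtrl and 3.79% of the shESE1 counts, and since they are part of the total, they bear on each FPKM below. Over the 12520 measured genes, which are those that reached 1 FPKM in either library, the log2 change had a median of 0.02. It was 0.20 as TPM, over the 16416 genes that then reached 1 TPM, and −0.10 over 12842 genes when mitochondrial counts were taken out of the totals.

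The 10 genes did not differ in the same direction. In shESE1 cells *IER2*, *FOS*, *FOSL2*, *EGR1* and the barely detected *FOSB* were lower by 1.49- to 2.20-fold, *JUN*, *FOSL1*, *IER3* and *JUND* were higher by 1.31- to 2.02-fold, and *JUNB* was within 1.09-fold. In bulk RNA fewer cells expressing a gene and less of its RNA per cell cannot be told apart. Log2 changes are given as log2((shESE1 FPKM + 1)/(shCtrl FPKM + 1)), which understates differences of genes at low levels. By this measure 0 of the 9 measured members were lower by 2-fold or more, beside 3.26% of all 12520 measured genes, and 0 were higher by that much, beside 3.14%. At 1.5-fold, 2 of 9 were lower (*IER2* and *FOSL2*) and 2 higher (*JUN* and *FOSL1*), beside 11.5% and 12.2% of all genes. The median log2 change of the measured members was −0.12, and the median of its absolute size was 0.58, against 0.33 over all measured genes.

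**Figure D1:**
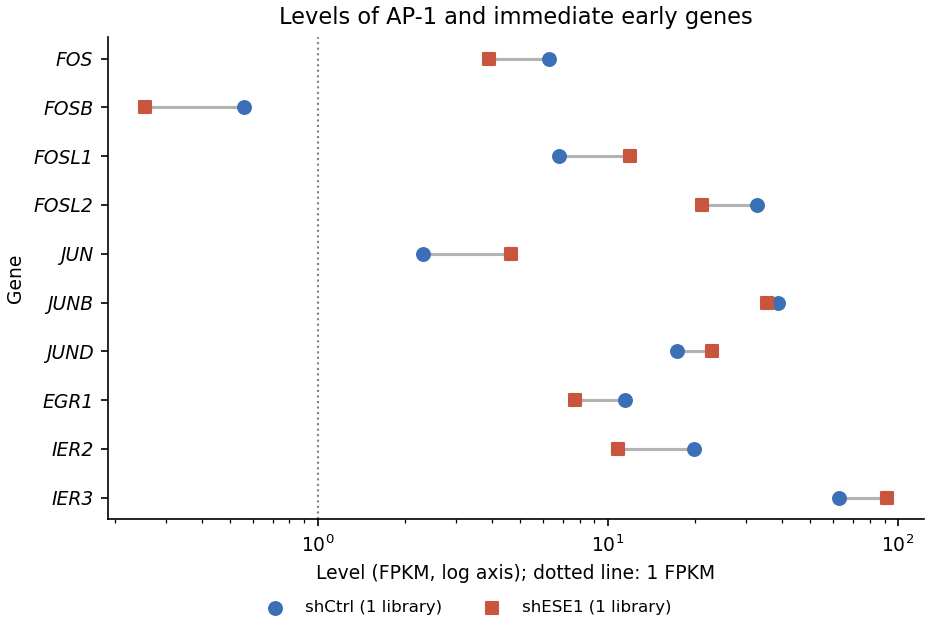
Level of each gene in FPKM (horizontal log axis) in the shCtrl library (circles) and the shESE1 library (squares), 1 library each. *FOSB* lies left of the dotted line at 1 FPKM in both libraries, and *IER3* is the highest gene, at 62.6 and 91.5 FPKM.

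For each gene the 95% interval of the ratio of counts (exact Clopper-Pearson, on the FPKM scale, without a pseudocount) covers counting error only. It lay below 0 for 6 members and above 0 for 4, so counting error alone was smaller than the difference for each of them. The same held for 84.8% of all measured genes, and the interval carries nothing on the spread between cultures. FPKM followed counts closely, with FPKM per count in shESE1 at 0.917 to 0.919 of that in shCtrl over the members.

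*FOS* (ENSG00000170345, chromosome 14, 75278826 to 75282230 on GRCh38, plus strand), the prototype partner of JUN, was at 6.30 FPKM in shCtrl and 3.89 FPKM in shESE1, from 1353 and 913 counts. This is 1.62-fold lower, with a log2 ratio of −0.69 (95% interval −0.81 to −0.57). *FOSL2* (ENSG00000075426, chromosome 2, 28392448 to 28417312, plus strand), which encodes FRA2, was at 32.7 FPKM in shCtrl and 21.1 FPKM in shESE1. Its log2 ratio of −0.64 (−0.67 to −0.60) rested on 15784 and 11077 counts, the most of any member. *FOS* and *FOSL2* were thus lower by a like factor, and the change in the ratio of *FOSL2* to *FOS* counts had an interval of −0.07 to 0.18 in log2. *FOSB* (ENSG00000125740, chromosome 19, 45467995 to 45475179, plus strand) was at 0.559 FPKM in shCtrl and 0.254 FPKM in shESE1, from 212 and 105 counts. Its log2 ratio was −1.14 (−1.49 to −0.79), but the log2 change, with its pseudocount of 1, was −0.31. *ERCC1*, at 7788 and 9971 counts, overlaps *FOSB*, and whether the counting used strand is not given in the sources used here.

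*FOSL1* (ENSG00000175592, chromosome 11, 65892049 to 65900419, minus strand) encodes FRA1, a FOS protein without the C-terminal activation domain of FOS that is often high in invasive carcinoma cells. It was at 6.81 FPKM in shCtrl and 11.9 FPKM in shESE1, from 866 and 1649 counts, and stood opposite to the other members of its family. It was 1.75-fold higher, with a log2 ratio of 0.81 (0.69 to 0.93). The ratio of *FOSL1* to *FOS* in FPKM went from 1.08 in shCtrl to 3.06 in shESE1. On the counts, where scaling between libraries cancels, this ratio was 2.82 times as large in shESE1 (95% interval of the log2 change 1.32 to 1.67). The log2 change of *FOSL1* was 0.73 with a pseudocount of 1, but 0.38 once a trend of transcript length and GC content was removed, a setting that was chosen after seeing the data.

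*JUN* (ENSG00000177606, chromosome 1, 58780791 to 58784047, minus strand), whose protein is activated by JNK phosphorylation and which is a target of its own product, was at 2.30 FPKM in shCtrl and 4.64 FPKM in shESE1, from 505 and 1110 counts. It was 2.02-fold higher without a pseudocount, with a log2 ratio of 1.01 (0.86 to 1.17). The log2 change with its pseudocount of 1 was 0.77, under 2-fold, while it was 1.16 as TPM, 1.00 after TMM scaling and 0.40 with a pseudocount of 5. *JUND* (ENSG00000130522, chromosome 19, 18279694 to 18281622, minus strand), a family member that is expressed more steadily and can restrain growth, was at 17.4 FPKM in shCtrl and 22.8 FPKM in shESE1, from 2258 and 3228 counts. Its log2 ratio was 0.39 (0.31 to 0.47), and its log2 change was 0.19 with the length and GC trend removed. *JUNB* (ENSG00000171223, chromosome 19, 12791486 to 12793315, plus strand), a weaker activator that can oppose JUN, was the highest gene of its family, at 38.5 FPKM in shCtrl and 35.4 FPKM in shESE1. Its 4742 and 4748 counts gave a log2 ratio of −0.12 (−0.18 to −0.06), and its sign turned to 0.14 as TPM. *HOOK2*, on the other strand, shares 259 bases with the *JUNB* transcript and had a log2 change of −0.31. *JUND* lay closer to *JUNB* in shESE1 cells, the FPKM ratio of *JUND* to *JUNB* being 0.452 in shCtrl and 0.645 in shESE1, and on the counts this ratio was 1.43 times as large (log2 0.51, 0.42 to 0.61).

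**Figure D2:**
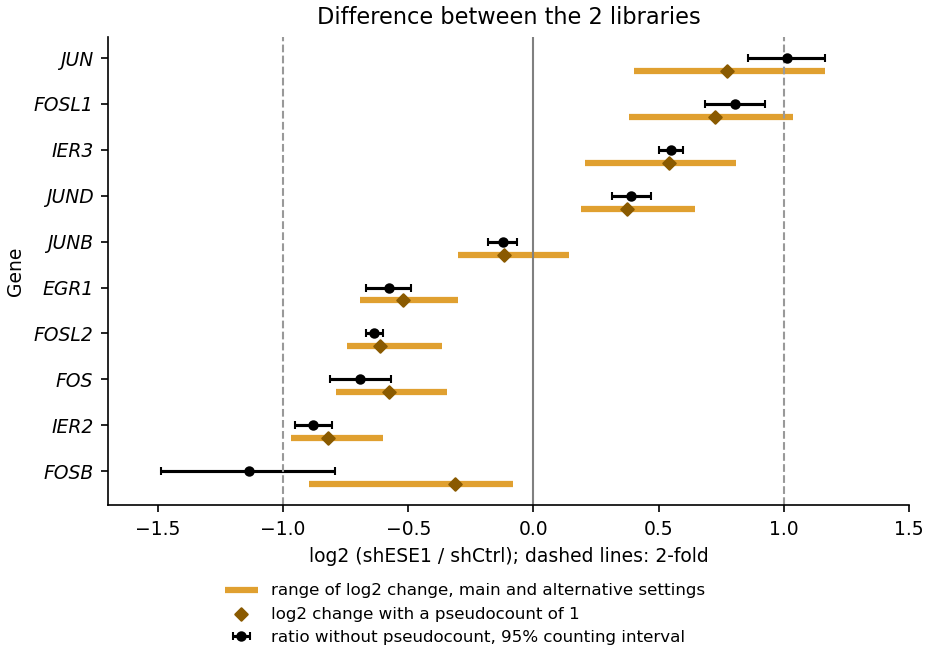
Difference between the libraries for each gene in log2 (horizontal axis), sorted. Black points are ratios without a pseudocount with 95% counting intervals, diamonds are the log2 change with a pseudocount of 1, and bars span the main and alternative settings, of which *JUNB* alone crosses 0 (−0.30 to 0.14).

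*EGR1* (ENSG00000120738, chromosome 5, 138465479 to 138469303, plus strand) was at 11.5 FPKM in shCtrl and 7.70 FPKM in shESE1, from 2428 and 1772 counts, a log2 ratio of −0.58 (−0.67 to −0.49). The change in the ratio of *EGR1* to *FOS*, which share serum response factor as a regulator, had an interval of −0.04 to 0.27 in log2. *IER2* (ENSG00000160888, chromosome 19, 13150411 to 13154911, plus strand) was at 19.9 FPKM in shCtrl and 10.8 FPKM in shESE1, from 4129 and 2448 counts. It was 1.84-fold lower, with a log2 ratio of −0.88 (−0.95 to −0.81), and its main log2 change of −0.82 had the largest size among the 9 measured members. A long noncoding RNA gene on the other strand that shares 953 bases with the *IER2* transcript (*AC011446*, ENSG00000267598) had 14 counts in the shCtrl library and 0 in the other. *IER3* (ENSG00000137331, chromosome 6, 30743199 to 30744548, minus strand) was at 62.6 FPKM in shCtrl and 91.5 FPKM in shESE1, from 5685 and 9065 counts, a log2 ratio of 0.55 (0.50 to 0.60). Its antisense gene *IER3-AS1* had 37 and 14 counts. With the length and GC trend removed the log2 change of *IER3* was 0.20 in place of 0.54. *IER2* and *IER3* thus differed in opposite directions, and the ratio of *IER3* to *IER2* was 2.69 times as large in shESE1 (log2 1.43, 1.34 to 1.51).

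Levels between genes were compared per length, by the percentile of FPKM among measured genes of the same library, which does not depend on scaling between libraries. *JUN* stood at the percentile 26.0 in shCtrl and 48.9 in shESE1, and *FOSL1* at 60.2 and 73.2. *FOS* went from 57.6 to 43.7, *IER2* from 85.0 to 71.1 and *EGR1* from 74.6 to 62.7. *IER3* (95.6 and 96.3), *JUNB* (92.6 and 90.2) and *JUND* (82.6 and 84.9) stayed within 3 points, and *FOSL2* was at 91.2 and 83.6.

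The summed FPKM of the 7 AP-1 genes was 104.6 in shCtrl and 99.9 in shESE1, while the shares within each family differed. In the FOS family, *FOSL2* held 70.6% of the summed FPKM in shCtrl and 56.8% in shESE1, and *FOSL1* held 14.7% and 32.1%. The share of *FOS* was 13.6% and 10.5%. The sum of the FOS family was 46.4 FPKM in shCtrl and 37.1 FPKM in shESE1. In the JUN family, *JUNB* held 66.2% and 56.3%, *JUND* 29.9% and 36.3% and *JUN* 3.96% and 7.39%, of sums of 58.2 and 62.8 FPKM. By counts in place of FPKM, the share of *FOSL1* was 4.75% (95% exact interval 4.45 to 5.07) in shCtrl and 12.0% (11.5 to 12.6) in shESE1. This is 7.24 points, against 17.4 points by FPKM, while the share of *JUN* differed by 5.49 points by counts and 3.44 points by FPKM.

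**Figure D3:**
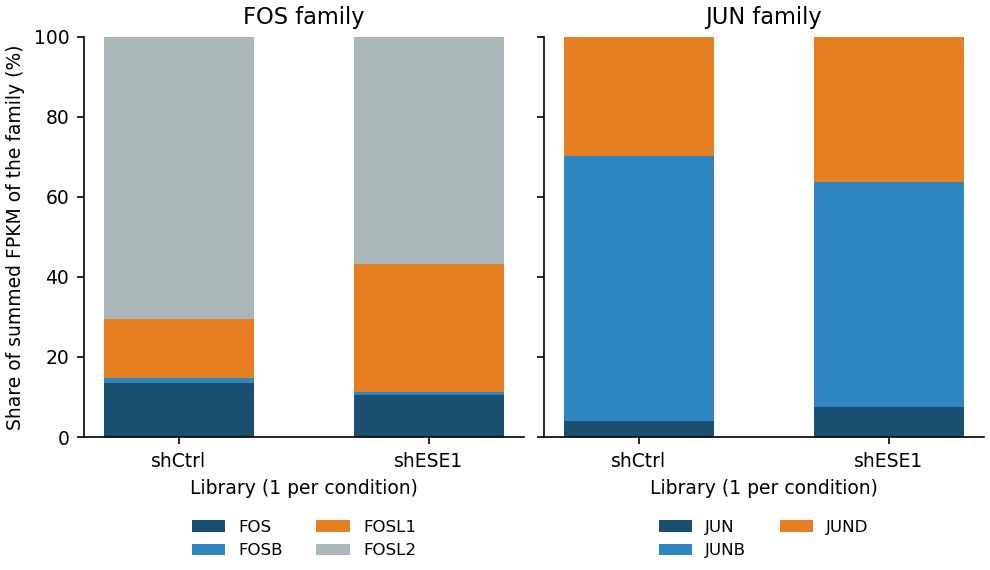
Share of each gene in the summed FPKM of the FOS family (left) and the JUN family (right), in percent, in 1 library per condition. The *FOSL1* part is 14.7% in shCtrl and 32.1% in shESE1, and the *JUNB* part 66.2% and 56.3%.

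The genes differ in structure from most of the measured protein-coding genes with at least 100 bases of 3′ untranslated region in GENCODE 29. The transcripts of *JUN*, *JUNB*, *JUND* and *IER2* have 1 exon and those of *EGR1* and *IER3* 2, against a median of 9 exons over 10070 genes, of which 2.22% have 1. GC content of the 10 transcripts was 52.6% (*FOS*) to 69.7% (*JUND*), against a median of 48.6%. Rapid decay of many immediate early mRNAs runs through AU-rich elements, built from the word ATTTA, in the 3′ untranslated region. This word was found in 9 of the 10 members, all but *IER2*, and in 72.5% of all genes, with the most copies in *FOSL2* (9), *IER3* (6) and *FOS* (5). Per kilobase of 3′ untranslated region these were 1.85, 8.11 and 6.18 copies, against a median of 1.72 over all genes. The longer word TTATTTATT was found in 2 members, *FOS* and *FOSL2*, and in 8.70% of all genes. Both stretches are shown in 30 bases from GENCODE transcripts as DNA letters, with the word in capitals, because these members were lower by a like factor.

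FOS (chromosome 14): tgtttttaatTTATTTATTaagatggattc

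FOSL2 (chromosome 2): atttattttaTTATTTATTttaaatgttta

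Over all measured genes of this kind, the median log2 change was −0.09 for the 876 genes with TTATTTATT and 0.04 for those without. *FOSB*, *EGR1* and *IER2* were lower without this word. Genes with and without the word were not matched for length or GC content, and the part of mRNA decay was not tested.

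**Figure D4:**
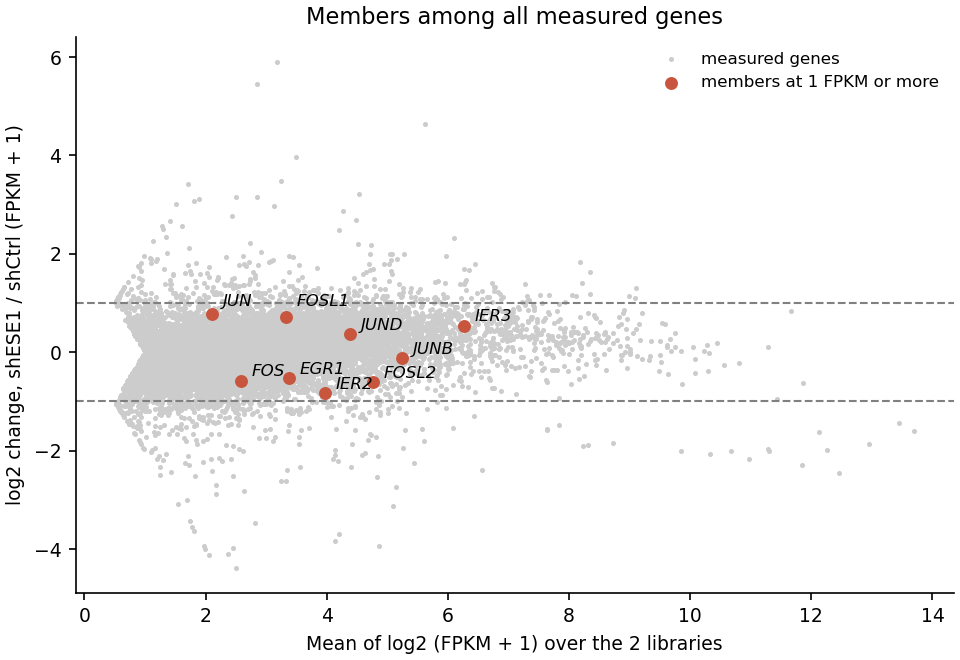
Log2 change (vertical axis) against the mean of log2(FPKM + 1) over both libraries (horizontal axis) for 12520 measured genes (grey) and the 9 measured members (red). All 9 lie between the dashed lines at 2-fold, from −0.82 (*IER2*) to 0.77 (*JUN*).

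The genes next to the members did not give one picture. The nearest measured protein-coding genes on either side of *FOSL1*, *CCDC85B* at 414 bases and *C11orf68* at 16391 bases, were higher in shESE1 too, with log2 changes of 0.66 and 0.63. The neighbours of *JUN* lay the other way, with *MYSM1*, 80714 bases off, at −0.32 and *HOOK1*, 1030739 bases off, at −0.58. *STX10*, 65 bases from *IER2*, was at 0.55 while *IER2* was at −0.82, and *CCDC130*, 576849 bases off on its other side, was at −0.12. *BABAM2* and *PPP1CB*, 53547 and 334328 bases from *FOSL2*, had log2 changes of −0.12 and −0.08. The neighbours of *FOS*, named after their values were seen, were lower as *FOS* was. They were *TMED10* at 102214 bases (−1.16) and *JDP2* at 145486 bases (−0.40).

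Other immediate early genes were also spread over both directions. The lists of related genes were chosen with earlier results of these libraries known. Of 40 such genes 33 were measured, with 2 at least 2-fold lower, 0 higher and a median log2 change of −0.11. Among all measured genes 3.26% were lower and 3.14% higher by 2-fold or more. *PTGS2*, which encodes the inducible prostaglandin synthase, was at 14.4 FPKM in shCtrl and 5.75 FPKM in shESE1 (log2 change −1.19), and *NR4A2*, an orphan nuclear receptor gene, at 5.04 and 1.81 FPKM (−1.10). The survival gene *MCL1* and *ID1*, which have the highest levels on the list, had log2 changes of −0.56 and 0.68. The relatives of *EGR1*, *EGR2*, *EGR3* and *EGR4*, had 28, 12 and 4 counts in shCtrl and 12, 0 and 0 in shESE1. *DUSP1*, a phosphatase that switches off MAP kinases, was named after its values were seen, at 23.8 FPKM in shCtrl and 14.8 FPKM in shESE1 (−0.65).

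Of 25 other basic leucine zipper genes, which can pair with or compete with AP-1, 17 were measured, 2 were at least 2-fold lower and 1 higher. Over all measured genes 3.26% were lower and 3.14% higher by that much. *MAFF*, a small MAF protein gene, was at 4.95 FPKM in shCtrl and 1.18 FPKM in shESE1 (−1.45). *BACH1*, a repressor that binds with small MAF proteins, was at 4.75 and 1.77 FPKM (−1.05), while *NFE2L2*, which encodes the activator NRF2, was at 5.79 and 12.7 FPKM (1.01). After median ratio scaling 0 were at least 2-fold higher. *NFE2L1* and *CREB3*, the highest genes on the list, had log2 changes of 0.15 and 0.75. *JDP2*, a repressor that pairs with JUN proteins, and *ATF3*, also immediate early, were named after their values were seen and were at −0.40 and 0.11.

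Genes upstream of AP-1 were mostly within 2-fold, as were most measured genes. Of all 12520 measured genes, 3.26% were lower and 3.14% higher by 2-fold or more. Of 24 MAP kinase relay genes 21 were measured, 1 was at least 2-fold lower and 0 higher, with a median log2 change of 0.15. With a pseudocount of 0.1, 2 were lower, beside 958 of the 12520 measured genes. The gene lower with a pseudocount of 1 was *MAPK14*, which encodes p38α, at 8.63 FPKM in shCtrl and 3.62 FPKM in shESE1 (−1.06). The MEK1 gene *MAP2K1*, the highest on the list in shCtrl, was at 26.8 and 36.1 FPKM. All 11 genes of serum response factor, its ternary complex partners and coactivators were measured, 0 passed 2-fold in either direction, and *SRF* was at 10.5 and 13.0 FPKM and *ELK1* at 7.50 and 11.3 FPKM. Of 12 genes of AP-1 protein turnover 10 were measured and 0 passed 2-fold, with a median of −0.37. *TRIB2*, the highest of these, was at 25.7 and 16.4 FPKM (−0.62), and *DDB1* at 20.0 and 24.5 FPKM (0.28). Among 15 factors of AU-rich mRNA decay and stability 0 passed 2-fold (1 was lower with a pseudocount of 0.1) and the median was −0.27. *KHSRP* and *HNRNPD* had log2 changes of 0.17 and 0.43. *ZFP36*, *ZFP36L1*, *ZFP36L2* and *ELAVL1*, named after their values were seen, were at −0.52, −0.66, −0.54 and 0.61. Of the 15 factors, 10 were below 0 and 5 above.

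Of 30 genes known as AP-1 targets 21 were measured, with 2 at least 2-fold lower and 5 higher, beside 3.26% and 3.14% of all measured genes. The list had a median log2 change of 0.44, against 0.02 over all measured genes and 0.15 over those reaching 5 FPKM. It was chosen with earlier results of these libraries known, so these values are no test of AP-1 targets. The higher ones included the stromelysin gene *MMP10* (1.74 FPKM in shCtrl and 6.54 FPKM in shESE1, log2 change 1.46), the caveolin gene *CAV1* (19.1 and 47.8 FPKM, 1.27) and the membrane linker gene *EZR* (66.5 and 146 FPKM, 1.13). *MMP9*, a gelatinase gene, had 13 counts in shCtrl against 248 in shESE1 cells and reached 1 FPKM through the shESE1 library alone. The same held for *MMP13*, named after its values were seen, with 103 counts in shCtrl and 311 in shESE1. Both genes entered the measured list because they were higher in shESE1. *SPP1*, the osteopontin gene, had 147 counts in shCtrl and 5 in shESE1 but stayed under 1 FPKM in both (0.924 and 0.0221 FPKM), so it is not among the measured genes, and it was named after its values were seen. Lower were *VEGFA* (−1.48) and *HBEGF* (−1.26), which encode growth factors. *KRT18* and *HMGA1*, the most abundant genes on the list, had log2 changes of 0.25 and 0.35. These genes also answer to other factors, and their relation to the AP-1 genes was not tested.

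Immediate early genes respond to handling and stress, and stress genes also differed between the libraries. All 16 stress and heat shock genes were measured. Of these, 0 were at least 2-fold lower and 7 higher, beside 3.26% and 3.14% of all measured genes. The 16 had a median log2 change of 0.74, with 13 above 0 and 3 below. The summed FPKM of the 16 was 1607 in shCtrl and 2712 in shESE1. *HSPA8* (1.18), *HSP90AA1* (1.14), *DNAJB1* (1.22) and *HSPE1* (1.12) were among those higher, and the nearly identical *HSPA1A* and *HSPA1B* together had 15033 and 55139 counts, a log2 ratio of 1.75. *UBB* was at 0.71 and *DDIT4* at −0.56. Also below 0, and named after their values were seen, were *PPP1R15A* (−0.43) and *DDIT3* (−0.16). The part of stress or handling in the differences of the AP-1 genes was not tested.

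**Figure D5:**
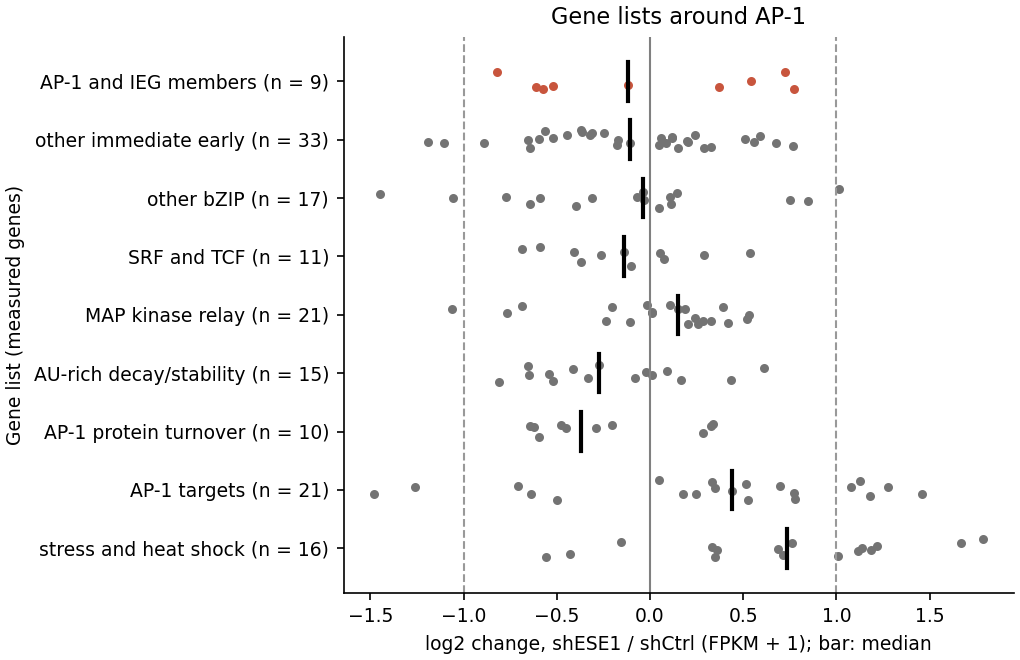
Log2 change of each measured gene (points) by list, with the median as a bar and dashed lines at 2-fold. The 9 members (red) have a median of −0.12, AP-1 targets 0.44 and stress and heat shock genes 0.74.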

How the data were processed

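The authors deposited, for each library, an FPKM value per gene and raw whole-number counts. Of tools and builds, fastp, HISAT2, StringTie, GRCh38 and mm10 are named in the processing notes of the submitters, without role or version, and which tool made the counts is not stated there. Libraries were poly(A) selected and strand-marked with dUTP. Columns of gene function terms were not used. Genes without counts hold a small constant as FPKM, which was set to 0. The members and gene lists were chosen with earlier results of these data known. Named genes were all members, for each list up to 6 genes changed at least 2-fold and the 2 highest in shCtrl, neighbours of members changed at least 1.5-fold, and those stated as chosen later. The values of 1 gene that this rule names are not reported here. No p-value was computed, since the study's comparison holds 1 library per condition. Ratios of counts carry 95% Clopper-Pearson intervals, and ratios between members exact conditional intervals for 14 pairs. Intervals cover counting error only. Members were compared with all transcripts of GENCODE 29 by megablast (at least 100 bases, 98% identity), and none shared sequence on its own strand with another gene. The interval calculation was tested on simulated counts. TMM was computed with its own implementation. Python 3.11.15, numpy 2.4.6, scipy 1.17.1 and pandas 2.3.3 were used.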

Additional observations from a re-analysis of the deposited data

How the results depend on the processing

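Direction was kept by 9 of the 10 genes under every alternative run for them, the exception being *JUNB*. The filters and pseudocounts could not change a sign, so only the other settings bear on direction. The count of members at least 2-fold lower was 0 in each setting except at a threshold of 1.5-fold. There it was 2 of 9, beside 11.5% of all measured genes. The count at least 2-fold higher was 2 of 10 as TPM, beside 1432 of 16416 genes. It was 1 of 10 after TMM scaling, beside 693 of 15268 genes, and 2 of 9 at 1.5-fold, beside 12.2% of all measured genes. The median log2 change of the members, −0.12, was −0.32 with a filter of 5 FPKM, −0.22 without a filter, −0.31 as CPM, −0.27 after TMM scaling, −0.25 when totals excluded mitochondrial genes and −0.30 without the length and GC trend, which was chosen after seeing the data. Filters and units change which members pass 1 FPKM or CPM, and the cause of the other shifts was not tested. *IER2* ranged from −0.97 to −0.60, *FOSL2* from −0.74 to −0.37, *FOS* from −0.79 to −0.34, *EGR1* from −0.69 to −0.30, *JUN* from 0.40 to 1.16, *FOSL1* from 0.38 to 1.04, *IER3* from 0.20 to 0.81 and *JUND* from 0.19 to 0.65. *FOSB* ranged from −0.89 to −0.08 with pseudocounts of 0.1 and 5, its level being under 1 FPKM. With a pseudocount of 0.1, 2 in place of 1 ductal markers were lower by 2-fold and 1 in place of 0 markers of other cell types higher. The counting interval was widest for *FOSB* (−1.49 to −0.79), the member with the fewest counts. Over all 12520 measured genes, 408 were lower and 393 higher at 2-fold. The counts were 958 and 644 with a pseudocount of 0.1, and 110 and 142 with a pseudocount of 5. As TPM they were 873 and 1432 of 16416 genes, and when totals excluded mitochondrial genes 568 and 293 of 12842. As CPM they were 1021 and 622 of 15238, and after TMM scaling 954 and 693 of 15268. With a filter of 5 FPKM they were 230 and 300 of 6764, and without the length and GC trend 320 and 204 of 10574. No paired analysis was possible because each condition had 1 library.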
